A study of Mus musculus with 5 samples.

Results

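The genes described here encode the machinery that moves proteins between the endoplasmic reticulum (ER) and the Golgi apparatus, namely the COPII and COPI vesicle coats, their Arf GTPases, Golgi SNAREs and tethers, cargo receptors, VAP proteins and Golgi mannosidases. They were chosen by gene symbol from a list drawn up with earlier results of these data known. The rule held no measured value, and every probe set that the array annotation assigned to one of the symbols alone was taken. The list held 41 genes of the 18195 that had such a probe set, and 84 probe sets in all. All 5 samples came from NIH/3T3 cells, an established line of mouse embryonic fibroblasts. The cells used for immunoprecipitation stably carried 2 retroviral constructs, pSLHGC-MYC-AUF1 p42 for myc-tagged AUF1 p42 and pBSwitch for its induction by mifepristone. They had earlier been selected with blasticidin while mifepristone was present, both those later induced and those not. The study's text does not say if the cells of the total RNA sample carried these constructs. AUF1, also called hnRNP D, is a protein that binds AU-rich elements of mRNAs, and p42 is one of its isoforms. Ribonucleoprotein complexes were immunoprecipitated (RNP-IP) with beads carrying an antibody to the myc tag from cells labelled induced, which had received 1 nM mifepristone for 24 h (n = 2), and from cells labelled uninduced, which had received none (n = 2). Total RNA was measured on 1 array, and no source used here tells if those cells had been induced. The comparison asked which transport mRNAs were more abundant in the material recovered with tagged AUF1 p42 than in the controls.

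COPII coats form vesicles at ER exit sites and carry newly made proteins forward. The small GTPase Sar1 recruits the inner coat of Sec23 and Sec24, of which Sec24 binds cargo, and the Sec13-Sec31 outer cage then assembles over it. COPI coats, recruited to Golgi membranes by Arf1, return escaped ER proteins and cycling receptors from the Golgi. SNAREs on vesicle and target membrane fuse the vesicle with its destination, and long coiled-coil tethers hold it there first. Fibroblasts secrete collagen and other matrix proteins along this route.

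The arrays had medians of 3.77 to 3.83 on the log2 scale of RMA, the method that put the probe signals of all arrays on one distribution, so each value is relative to the other RNAs of the same array and carries no information on the amount recovered. Between 13168 and 13649 probe sets of an array exceeded a log2 signal of 5, below which a value is called near background here. In bulk RNA, fewer cells carrying an mRNA and less of it per cell cannot be told apart. In an RNP-IP, abundance in the cells and recovery on the beads both enter the signal and were not separated. Hnrnpd, the AUF1 gene itself, read 6.72 and 7.39 in the RNP-IPs labelled induced on its brightest probe set, against 11.35 and 11.85 with the uninduced label and 10.60 in total RNA. It was thus lower in the samples labelled induced (log2 fold change -4.21, SE 0.46, adjusted p = 0.114 from limma), opposite to what induction would give if its probes detect the mRNA of the transgene, which was not tested. Every direction below is that of the libraries as labelled. The 5′ control probe set of Gapdh, which bears on RNA quality, read 4.24 in induced replicate 2 and 3.65 in uninduced replicate 1. On the other arrays it read 6.93 to 8.18. The 3′ Gapdh probe set was also lower on that pair, at 9.71 and 9.70 against 11.90 to 12.32. Total RNA, at 6.93 and 12.32, had a gap between 5′ and 3′ signals like that of induced replicate 2. The 5′ signal alone thus does not rank the arrays by RNA quality. Results were also computed without induced replicate 2 and uninduced replicate 1. All 10 fibroblast markers exceeded 5 on every array (6.20 to 13.42), while 4 of 5 epithelial, 4 of 4 blood, 4 of 4 endothelial and 3 of 4 neural markers had means near background.

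Of the 41 transport genes, Man2a2 and Gosr1 were higher and Sec24a was lower in the RNP-IPs labelled induced than in the 3 controls, by the calling rule of the study, a change of 3-fold or more together with an adjusted p under 0.5. The other 38 genes did not pass. Of all 18195 genes 1.32% were called higher and 2.36% lower, and of the 8275 genes with a mean log2 signal of at least 5, a range that held all 41 transport genes, 2.62% were called higher and 5.12% lower. The 2 higher calls and 1 lower call thus lay near the share of called genes of like signal. This is a description only, since the list was drawn up with earlier results of these data known. At an adjusted p under 0.05 limma called 0 of the 41 genes and 0 of all 18195 genes, so this count does not set the list apart. Unadjusted p-values under 0.05 were found for 10 of the 41 (24.4%, beside 24.0% of the genes of like signal). The median log2 fold change of the 41 genes was -0.06, against -0.13 for all genes with a mean log2 signal of at least 5. Both samples labelled induced lay above all controls for 9 genes and below all controls for 11, that is 22.0% and 26.8% of the list, beside 15.5% and 24.2% of the genes of like signal. The remaining 21 genes overlapped. The study's text calls the RNP-IPs of induced cells independent, but no source used here says that replicates came from separate cultures. The p-values of this comparison measure the spread within the 2 groups. That of the controls includes any difference between total RNA and the RNP-IPs labelled uninduced. The spread between RNP-IPs may be technical.

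**Figure D1:**
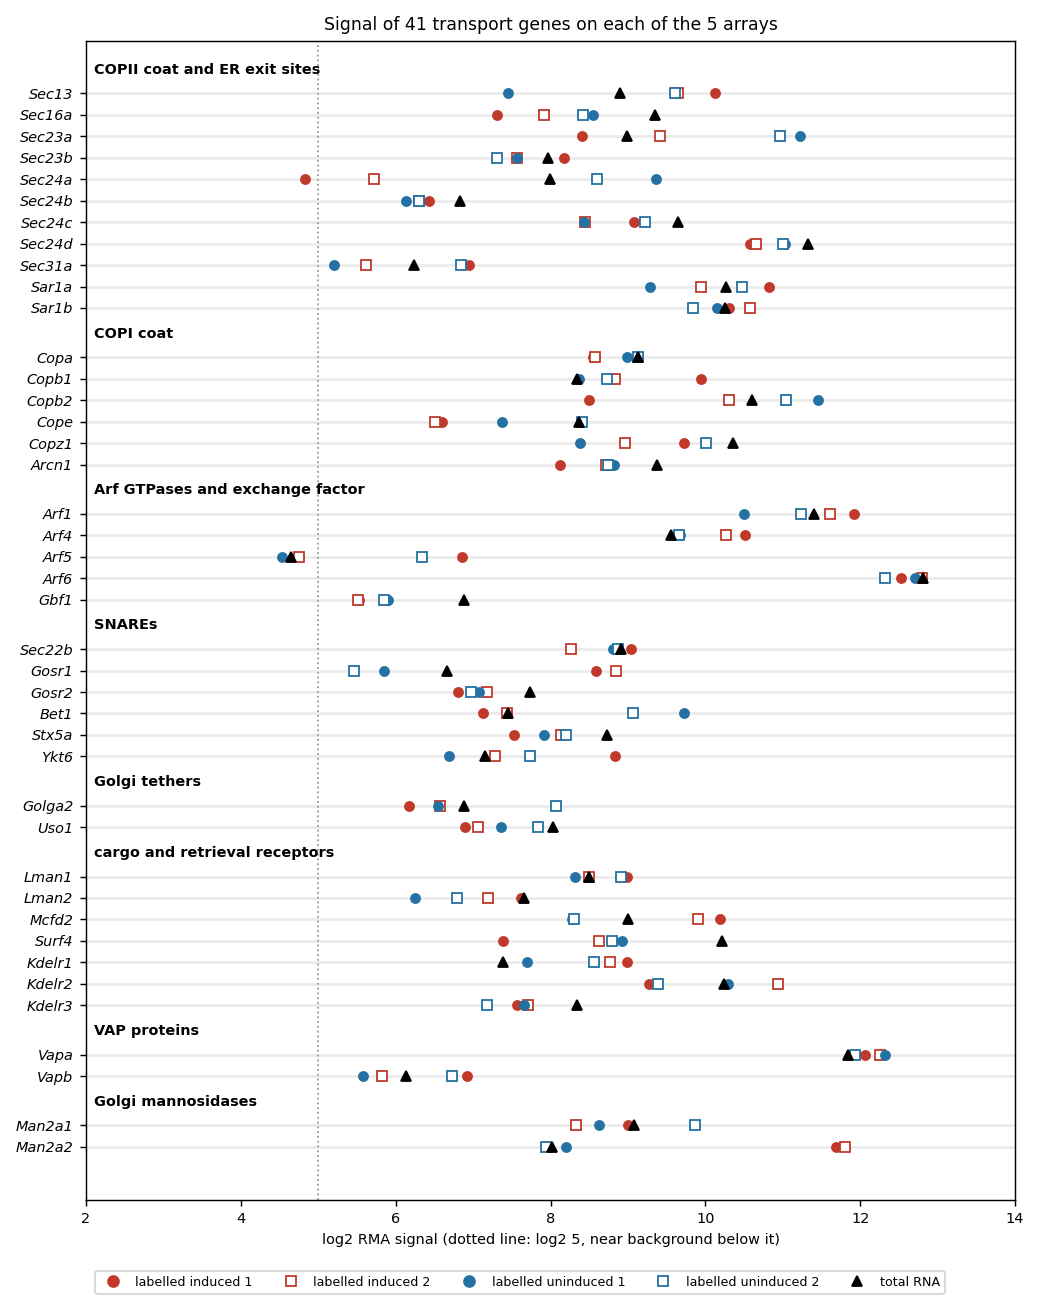
Log2 RMA signal (x axis) of the brightest probe set of each of the 41 transport genes on each of the 5 arrays, grouped by role, with a dotted line at log2 5. The red symbols of Man2a2 and Gosr1 lie to the right of all controls and those of Sec24a to the left, while 21 genes overlap; signals are comparable along a line, not between lines.

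Man2a2 encodes alpha-mannosidase IIx, which trims mannose residues from N-glycans in the Golgi. Its log2 signal was 11.68 and 11.80 in RNP-IPs labelled induced, 8.20 and 7.94 with the uninduced label and 8.02 in total RNA. Both samples labelled induced lay far above all 3 controls, which stood close together. The log2 fold change was 3.69 (SE 0.10, 12.9-fold, adjusted p = 0.0523 from limma), the largest among the 41 genes in this comparison, although Sec24a, whose lower group touches background, was slightly larger in size against the samples labelled uninduced alone and without induced replicate 2. The related Man2a1, which encodes Golgi alpha-mannosidase II, read 9.00 and 8.33 in the samples labelled induced, 8.63 and 9.87 with the uninduced label and 9.08 in total RNA, and its groups overlapped (log2 fold change -0.53).

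Among the 6 SNAREs 1 was called higher and none lower against the controls. Gosr1, also known as GS28, is a SNARE of the Golgi cisternae that takes part in ER-to-Golgi and intra-Golgi fusion. Its log2 signal was 8.59 and 8.85 in RNP-IPs labelled induced, 5.85 and 5.46 with the uninduced label and 6.66 in total RNA. No control reached the samples labelled induced, and total RNA stood above both samples labelled uninduced. The log2 fold change was 2.73 (SE 0.41, 6.63-fold, adjusted p = 0.157 from limma). Gosr2, the membrin SNARE of the cis-Golgi, lay between 6.81 and 7.74 on all arrays with overlapping groups (log2 fold change -0.27). Bet1, a SNARE of ER-to-Golgi vesicles, had log2 signals of 7.13 and 7.44 in the samples labelled induced, 9.72 and 9.06 with the uninduced label and 7.44 in total RNA, which matched the higher sample labelled induced to 2 decimals. It thus stood high in the samples labelled uninduced alone, and against the 3 controls its log2 fold change of -1.46 (adjusted p = 0.668 from limma, SE 0.77) did not pass. Sec22b, the ER-Golgi R-SNARE, Stx5a, the Golgi syntaxin, and Ykt6, a lipid-anchored SNARE, had log2 fold changes of -0.21, -0.45 and 0.86. None of these 3 was called, and the groups of each overlapped.

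The 11 COPII and ER exit site genes held 1 lower call and no higher call. Sec24a, one of the Sec24 paralogs that select cargo for the coat, gave 4.83 and 5.72 on the log2 scale in RNP-IPs labelled induced, 9.36 and 8.60 with the uninduced label and 7.99 in total RNA. Both samples labelled induced were low, 1 of them near background, and all 3 controls were well above them. The log2 fold change was -3.38 (SE 0.53, 10.4-fold lower, adjusted p = 0.167 from limma). The other Sec24 paralogs did not pass, with log2 fold changes of -0.06 for Sec24b, -0.34 for Sec24c and -0.50 for Sec24d. Sec24d was nonetheless below all controls in both samples labelled induced, at 10.57 and 10.65 against 11.02, 11.01 and 11.33.

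Sec23a, which activates the GTPase of Sar1 and binds Sec24 in the inner coat, read 8.40 and 9.41 in RNP-IPs labelled induced, 11.23 and 10.97 with the uninduced label and 8.99 in total RNA. As for Bet1, the samples labelled uninduced were the high ones and total RNA fell among the samples labelled induced, so the comparison with the 3 controls did not pass (log2 fold change -1.49, SE 0.86, adjusted p = 0.683 from limma). Its paralog Sec23b stayed within 7.31 to 8.18 on all arrays (log2 fold change 0.26). Sec16a, a scaffold of ER exit sites, read 7.30 and 7.91 in the samples labelled induced against 8.55 and 8.42 with the uninduced label and 9.34 in total RNA, with a log2 fold change of -1.16 that was not called. Sec13, of the outer cage, had the largest log2 fold change of the COPII genes in the other direction, 1.24 (SE 0.73, adjusted p = 0.683 from limma), with samples labelled uninduced at 7.45 and 9.60 and total RNA at 8.90. The higher of them stood just under the samples labelled induced at 10.13 and 9.65. Sec31a of the outer cage and the GTPases Sar1a and Sar1b had log2 fold changes of 0.19, 0.38 and 0.36, none of which was called.

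None of the 6 COPI coat genes was called in either direction against the controls. On the brightest probe sets 5 of the 6 log2 fold changes were below 0, as were those of 4798 of the 8275 genes of like signal. Other probe sets of mean log2 5 or more gave 0.44 for Arcn1, 0.24 for Copz1 and -0.03 for Copb2. Copb2, the beta-prime subunit, came nearest, with 8.50 and 10.30 on the log2 scale in RNP-IPs labelled induced, 11.46 and 11.04 with the uninduced label and 10.61 in total RNA. Both samples labelled induced were below all controls, by unequal amounts, and the log2 fold change was -1.63 (SE 0.65, 3.1-fold lower, adjusted p = 0.523 from limma). It was called lower without induced replicate 2, after median centring and with dim probe sets left out. Cope, the epsilon subunit, read 6.60 and 6.50 against 7.37, 8.40 and 8.36 (log2 fold change -1.49, SE 0.38, adjusted p = 0.304 from limma). Copa, the alpha subunit, differed little between replicates, at 8.55 and 8.57 against 8.99, 9.13 and 9.13, and its log2 fold change of -0.53 (adjusted p = 0.13 from limma, SE 0.07) was small. Arcn1, the delta subunit, had a log2 fold change of -0.56 and also lay below all controls, although its 2 samples labelled induced were 8.12 and 8.72 and the lowest control was 8.75. Copz1, the zeta subunit, had a log2 fold change of -0.24 with overlapping groups. Copb1, the beta subunit, ran the other way, with 9.94 and 8.83 against 8.37, 8.73 and 8.35 (log2 fold change 0.90, not called).

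The 4 Arf GTPases and Gbf1, the exchange factor that loads Arf with GTP at the early Golgi, held no call. Arf4 read 10.51 and 10.27 in RNP-IPs labelled induced, 9.67 and 9.66 with the uninduced label and 9.55 in total RNA on its brightest probe set. The groups did not overlap, and the difference was 1.70-fold (log2 fold change 0.76, SE 0.10, adjusted p = 0.133 from limma), short of the 3-fold threshold. Arf1, which recruits COPI, also lay above all controls, at 11.91 and 11.60 against 10.50, 11.23 and 11.40 (log2 fold change 0.72). Arf6, which acts at the plasma membrane, had a log2 fold change of 0.05. Arf5 was near background on 3 arrays and varied most between replicates, at 6.86 and 4.75 in the samples labelled induced. Gbf1 read 5.52 and 5.51 against 5.90, 5.85 and 6.88, with a log2 fold change of -0.69.

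Among the 7 cargo and retrieval receptors none was called against the controls. Mcfd2, a calcium-binding partner of the lectin Lman1 in the export of coagulation factors, came nearest, with 10.18 and 9.90 on the log2 scale in RNP-IPs labelled induced, 8.28 and 8.30 with the uninduced label and 9.00 in total RNA. The samples labelled induced were above all controls, at 2.86-fold (log2 fold change 1.52, SE 0.28, adjusted p = 0.213 from limma), and the gene was called higher without induced replicate 2 and after cyclic loess scaling. Kdelr1, one of the receptors that return KDEL-bearing ER proteins, read 8.99 and 8.77 against 7.70, 8.57 and 7.39 (log2 fold change 1.00, SE 0.40, adjusted p = 0.537 from limma). Its paralogs Kdelr2 and Kdelr3 had log2 fold changes of 0.13 and -0.09. Surf4, a receptor for soluble cargo, had 7.38 and 8.63 in the samples labelled induced, 8.93 and 8.80 with the uninduced label and 10.21 in total RNA (log2 fold change -1.31, not called). The lectins Lman1 and Lman2 had log2 fold changes of 0.17 and 0.50, with overlapping groups.

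The tethers Golga2 (GM130) and Uso1 (p115) had log2 fold changes of -0.80 and -0.76 and were not called. Uso1 lay below all controls in both RNP-IPs labelled induced, at 6.90 and 7.06 against 7.37, 7.84 and 8.04. Vapa and Vapb, ER membrane proteins that anchor lipid-transfer proteins at contact sites, had log2 fold changes of 0.13 and 0.23. Across all roles, 30 of the 41 genes were within 2-fold of the controls (73.2%, beside 75.8% of genes with a mean log2 signal of at least 5).

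**Figure D2:**
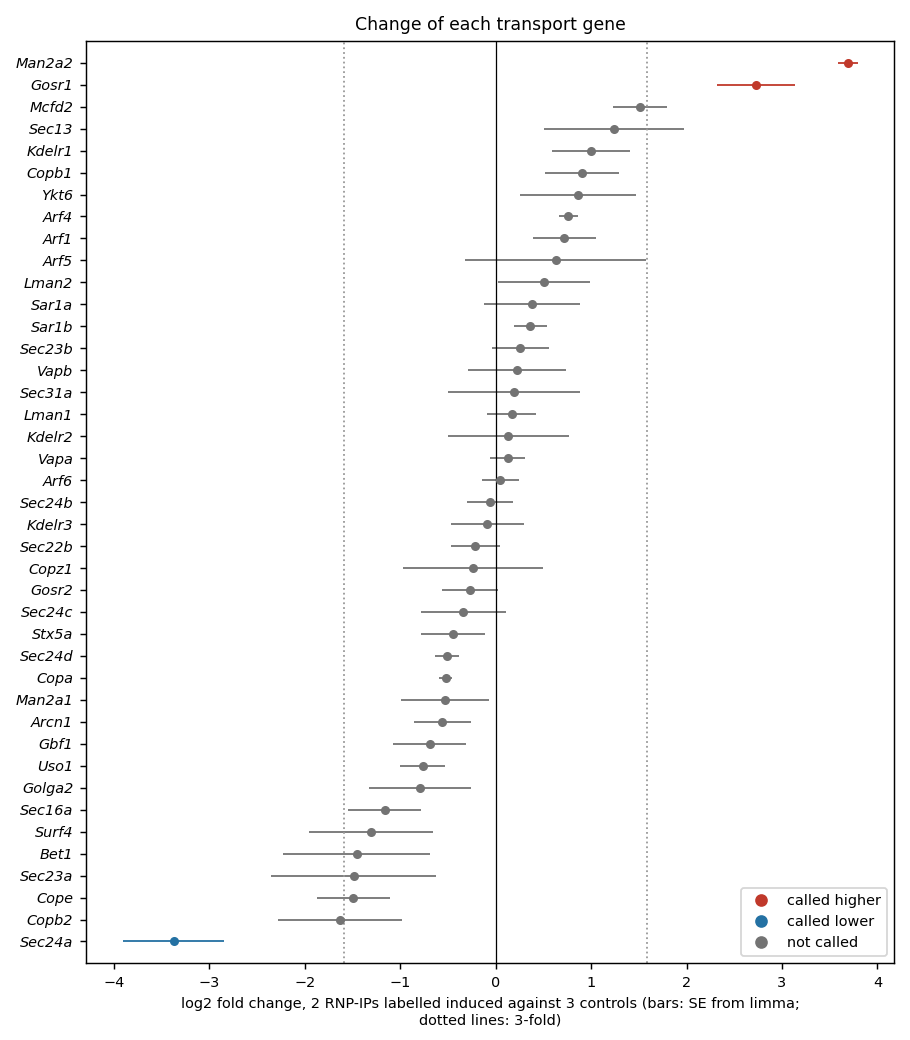
Log2 fold change (x axis) of each of the 41 transport genes, ordered by size, in the 2 RNP-IPs labelled induced against the 3 controls, with bars of 1 SE from limma and dotted lines at 3-fold. Man2a2 at 3.69, Gosr1 at 2.73 and Sec24a at -3.38 were called, and Copb2 at -1.63 passed the fold but not the adjusted p.

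The controls were then taken apart. These comparisons share arrays with each other and with the first, and the single total RNA array was assumed to vary like the other groups. Against the RNP-IPs labelled uninduced alone, 3 genes passed as higher in those labelled induced and 3 as lower, with 1.38% of all genes called higher and 2.65% lower (2.77% and 5.66% of those of like signal). The higher genes were Man2a2 (log2 fold change 3.67, SE 0.12, adjusted p = 0.118), Gosr1 (3.06, SE 0.20, adjusted p = 0.126) and Mcfd2 (1.75, SE 0.12, adjusted p = 0.133), all from limma. The lower genes were Sec24a (log2 fold change -3.71, SE 0.49, adjusted p = 0.197), Sec23a (-2.19, SE 0.44, adjusted p = 0.286) and Bet1 (-2.11, SE 0.31, adjusted p = 0.215), again from limma. Of the 41 genes 11 had an unadjusted p under 0.05 (26.8%, beside 25.8% of the genes of like signal). At an adjusted p under 0.05 limma called 0 of the 41 and 0 of all genes. The call of Sec23a was lost without uninduced replicate 1 (log2 fold change -2.06, adjusted p = 0.501 from limma).

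Between the RNP-IPs labelled uninduced and total RNA, 2 of the 41 genes were called higher and 0 lower by limma, and 9 had an unadjusted p under 0.05 (22.0%, beside 20.2% of the genes of like signal). Of all genes 1.26% were called higher and 1.36% lower (2.65% and 2.55% of those of like signal). The 2 higher genes were Sec23a (log2 fold change 2.11, SE 0.54, 4.32-fold, adjusted p = 0.394 from limma) and Bet1 (1.95, SE 0.38, 3.86-fold, adjusted p = 0.325 from limma). On these probe sets both genes were thus higher in the samples labelled uninduced than in either of the other kinds of sample, while the samples labelled induced and total RNA were close, at log2 differences of -0.08 for Sec23a and -0.16 for Bet1. The second, dimmer probe set of Bet1 showed no such peak, at 5.28 and 4.70 in the samples labelled uninduced, 5.30 and 6.10 with the induced label and 4.71 in total RNA. Without uninduced replicate 1 the call of Sec23a was lost (log2 fold change 1.98, adjusted p = 0.551 from limma). Man2a2 did not pass between the samples labelled uninduced and total RNA (log2 fold change 0.06), and neither did Gosr1 (-1.0, SE 0.24, adjusted p = 0.384 from limma) or Mcfd2 (-0.71), both lower in the samples labelled uninduced.

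Against total RNA, 2 genes passed as higher in the RNP-IPs labelled induced, Man2a2 (13.3-fold) and Gosr1 (4.18-fold), and 4 were called lower. Of the 41 genes 15 had an unadjusted p under 0.05 (36.6%, beside 28.1% of the genes of like signal). With limma's adjusted p under 0.05, 0 of the 41 and 0 of all genes were called. Of all genes 2.03% were called higher and 4.5% lower (4.15% and 9.27% of those of like signal). The lower genes were Sec24a (6.56-fold), Surf4 (4.61-fold), Cope (3.51-fold) and Sec16a (3.33-fold), with adjusted p-values from limma of 0.26, 0.34, 0.343 and 0.223. Only Sec24a of these 4 remained called when induced replicate 1 was left out, where the log2 fold changes of Surf4, Cope and Sec16a were -1.58, -1.86 and -1.43. The call of Cope was also lost without induced replicate 2, and that of Surf4 without either sample labelled uninduced. Ranked by group mean, total RNA was highest and the samples labelled induced lowest for 12 of the 41 genes, the most frequent of the orders. The samples labelled induced were highest for 16 genes, of which the samples labelled uninduced were lowest in 7 and total RNA in 9. These orders were not counted over all genes, so they are not shown to be particular to the list. Of the genes of like signal 41.3% were higher with the induced label than in total RNA, beside 39.0% of the 41.

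**Figure D3:**
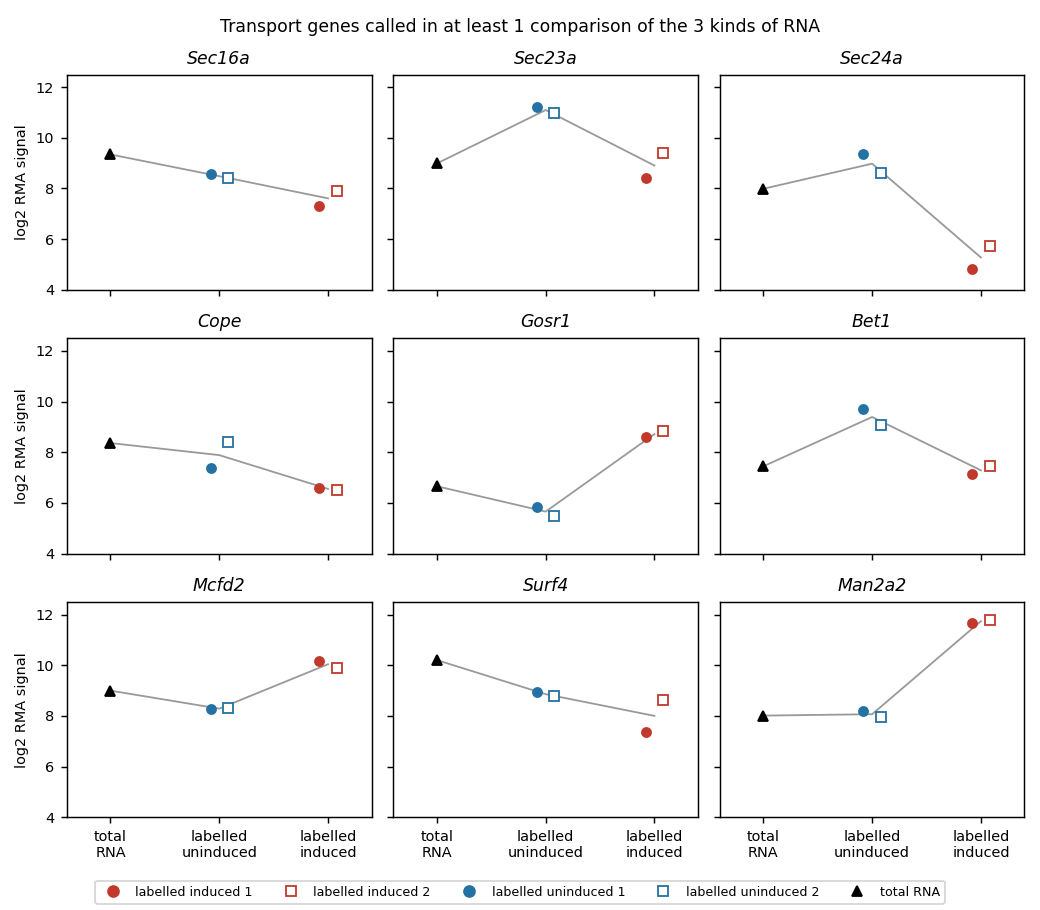
Log2 signal (y axis) of the brightest probe set in total RNA (1 array), the RNP-IPs labelled uninduced and those labelled induced (2 arrays each), with points for arrays and lines joining group means. Man2a2, Gosr1 and Mcfd2 are highest in the samples labelled induced, and Sec23a and Bet1 peak in those labelled uninduced, which the second probe set of Bet1, not drawn, does not.

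Paralogs were compared within each array, where a shift common to the array cancels. Each is a difference between probe sets, so only its change between arrays can be read. Sec24a minus the mean of the other Sec24 paralogs was -3.86 and -2.75 in RNP-IPs labelled induced, 0.83 and -0.24 with the uninduced label and -1.28 in total RNA, on the log2 scale. Both samples labelled induced were below all controls. Man2a2 minus Man2a1 was 2.68 and 3.47 in the samples labelled induced, -0.43 and -1.93 with the uninduced label and -1.06 in total RNA. Gosr1 minus Gosr2 was 1.78 and 1.67, then -1.23 and -1.51, then -1.08 in the same order. For each of these 3 contrasts the groups did not overlap, which gave p = 0.1 in a two-sided exact permutation test of the 5 arrays, the smallest it allows, and 0.233 after Benjamini-Hochberg adjustment over the 7 contrasts of paralogs and subunits compared. Since these are the 3 genes already called and their paralogs were not, the test adds no evidence of its own. Sec23a minus Sec23b was 0.22 and 1.85 in the samples labelled induced, 3.67 and 3.66 with the uninduced label and 1.02 in total RNA (exact permutation p = 0.3). Sar1a against Sar1b (p = 1), Vapa against Vapb (p = 0.9) and Copb2 against the mean of the other coatomer subunits (p = 0.4) overlapped between the groups in the exact permutation test.

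The 3 genes called against the controls each rested on a single bright probe set. Of the 41 genes 15 had 1 probe set and 26 had several, up to 5, and 20 of the 84 probe sets had a mean near background. The second probe set of Man2a2 lay between 3.63 and 4.03 on all arrays (log2 fold change 0.14), that of Gosr1 between 4.02 and 4.81 (-0.28) and that of Sec24a between 3.46 and 4.31 (-0.34), all of them near background. Of the 17 genes with at least 2 probe sets of mean log2 5 or more, 9 had probe sets with log2 fold changes of both signs. In some the crossing of 0 was slight, as for Lman1 (lowest value -0.00028) and Sar1a (-0.09), and Bet1 had the widest range (2.26). Arf4 was among the genes whose size depended on the probe set. A dimmer Arf4 probe set read 7.51 and 7.43 in RNP-IPs labelled induced, 5.33 and 6.31 with the uninduced label and 6.11 in total RNA, and was called higher against the samples labelled uninduced alone (log2 fold change 1.65, SE 0.41, adjusted p = 0.357 from limma), while another had a log2 fold change of 0.07 against the controls and the last was near background. The second Bet1 probe set, given above, had a log2 fold change against the controls of 0.80 against the -1.46 of the brightest. A second probe set of Copb2 had a log2 fold change of -0.03 against the -1.63 of the brightest. For Lman1 a dimmer probe set was called higher against total RNA (log2 fold change 1.81, adjusted p = 0.149 from limma), where the brightest was not. Surf4 had a second probe set that was also called lower against total RNA (log2 fold change -1.73, adjusted p = 0.155 from limma). The brightest probe set of 6 genes, Sec16a, Gbf1, Gosr2, Stx5a, Lman1 and Surf4, is of a kind whose probes can match transcripts of other genes, so their values are uncertain in that respect.

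**Figure D4:**
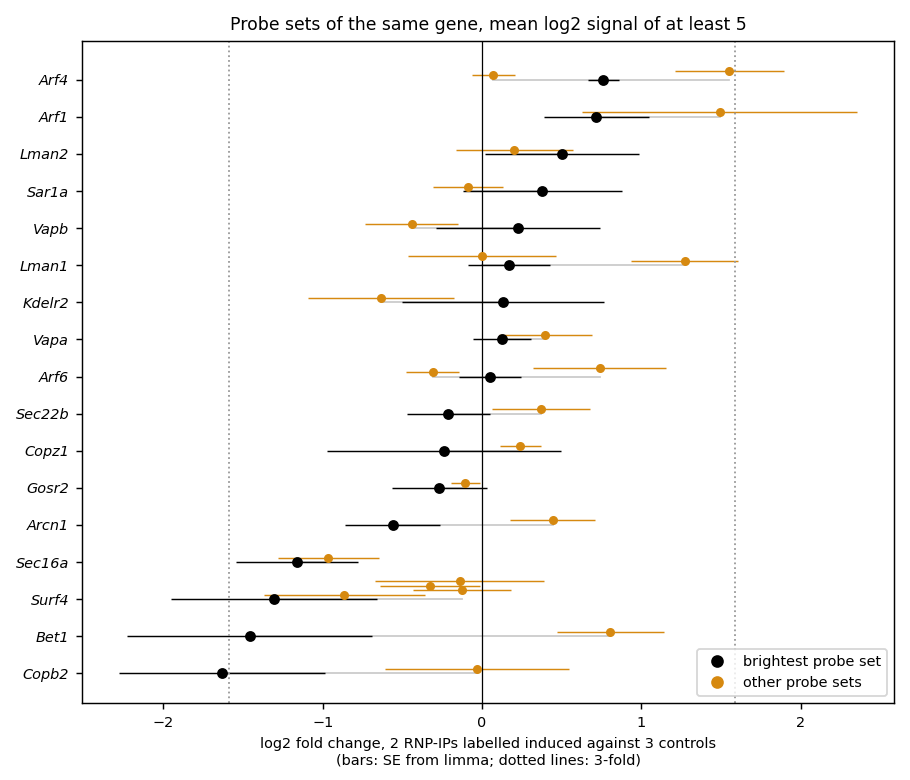
Log2 fold change (x axis) in the 2 RNP-IPs labelled induced against the 3 controls for the probe sets of mean log2 5 or more of the 17 genes that have at least 2 of them, black for the brightest and orange for the others, with bars of 1 SE from limma and dotted lines at 3-fold. For Bet1 and Copb2 the brightest probe sets lie at -1.46 and -1.63 and the others at 0.80 and -0.03. Of the 17 genes 9 have probe sets on both sides of 0, some of them only just.

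Replicates differed by a median of 0.47 log2 units between the RNP-IPs labelled induced and 0.42 between those labelled uninduced, over the 41 genes. The largest differences were 2.11 for Arf5 in the samples labelled induced and 2.16 for Sec13 in those labelled uninduced, and 9 and 10 genes respectively differed by more than 1. For the 8275 genes of like signal the medians were lower, at 0.40 and 0.38. Of these, 1149 and 1120 differed by more than 1. The sign of replicate 1 minus replicate 2 was opposite in the 2 groups for 34 of the 41 genes (82.9%), beside 72.6% of the 8275 genes with a mean log2 signal of at least 5. Sec31a, Arf5, Ykt6 and Vapb exceeded 1 in both groups, always with induced replicate 1 and uninduced replicate 2 as the higher arrays. The lower arrays in that pattern, induced replicate 2 and uninduced replicate 1, were also those with the low 5′ Gapdh signal, and the part of RNA quality in it was not tested. Without these 2 arrays 1 sample labelled induced was left against 2 controls, and the spread came from the controls alone. Man2a2 then passed the calling rule, Gosr1 had a log2 fold change of 2.53 and did not (adjusted p = 0.534 from limma), and Sec24a, Copb2 and Cope passed as lower.

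**Figure D5:**
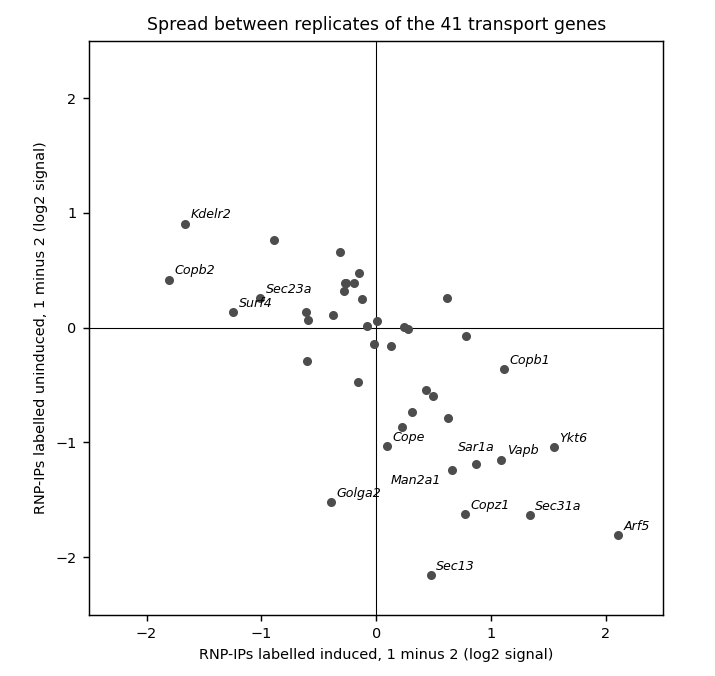
Difference between replicates 1 and 2 in log2 signal for each of the 41 transport genes, in the RNP-IPs labelled induced (x axis) and in those labelled uninduced (y axis). Most points, 34 of 41, lie in the upper left and lower right of the plot, with opposite signs, and the named genes differ by more than 1 in at least 1 group.

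The pathway holds further genes outside the list, and 73 of 74 that had been listed were measured, 9 of them with a mean near background. Against the controls 0 of the 73 were called higher by limma and 2 lower, beside 2.62% and 5.12% of the genes of like signal. An unadjusted p under 0.05 was found for 18 (24.7%, beside 24.0%). Their median log2 fold change was -0.20, with 53 of 73 below 0, beside 21 of the 41 members, and -0.13 with 4798 of 8275 below 0 for the genes of like signal. Stx6, a syntaxin of the trans-Golgi network and endosomes, read 7.51 and 8.48 in RNP-IPs labelled induced, 10.13 and 9.30 with the uninduced label and 10.32 in total RNA (log2 fold change -1.92, SE 0.47, adjusted p = 0.289 from limma). Ergic2, a protein that cycles between ER and Golgi, read 5.15 and 6.56, then 7.84 and 7.44, then 7.82 (log2 fold change -1.84, SE 0.48, adjusted p = 0.311 from limma). In both genes the samples labelled induced were below all controls, but other probe sets ran differently. For Stx6 those of mean log2 5 or more had log2 fold changes of -1.0 and 0.07 and those near background 0.01 to 0.63, and for Ergic2 both others were near background, at -0.41 and 1.28. Use1, an ER SNARE of the retrograde route, stood high in the samples labelled uninduced in the same way as Sec23a and Bet1, at 9.01 and 8.56 in those labelled induced, 10.41 and 10.78 with the uninduced label and 7.98 in total RNA. It was called higher in the samples labelled uninduced than in total RNA (log2 fold change 2.61, SE 0.30, adjusted p = 0.222 from limma) and lower in those labelled induced than in those labelled uninduced (-1.81, adjusted p = 0.203). Only the brightest of the 3 probe sets of Use1 is given. Like the brightest of Stx6, it is of a kind whose probes can match transcripts of other genes. Golga3, a golgin, was called lower in the samples labelled induced than in those labelled uninduced (log2 fold change -1.94, adjusted p = 0.321 from limma), as were Stx6 and Ergic2. With Use1 these made 4 lower calls of 73 in that comparison and 0 higher, beside 5.66% and 2.77% of the genes of like signal. Against total RNA 6 of the 73 were called lower and 0 higher, beside 9.27% and 4.15% of the genes of like signal. Stx6 and Ergic2 were 2 of the 6. The other 4 were Arfgap2, an Arf GTPase-activating protein (log2 fold change -2.07), Arfgef1, an exchange factor of Arf (-1.63), Nbas, of the ER tethering complex for retrograde vesicles (-2.17), and Tmem115, a Golgi membrane protein (-2.07). These 4 had adjusted p-values from limma of 0.344, 0.128, 0.184 and 0.156 in that order.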

How the data were processed

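The authors amplified the RNA of 5 samples by two-cycle labelling, hybridised it to Affymetrix mouse GeneChip arrays and normalised the scanned signals by RMA (version not given). The deposited values are on a log2 scale, from 2.32 to 14.86, for 45101 probe sets without a filter, and were used as deposited. The number of arrays limits the precision.

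Gene symbols came from an array annotation in which 34958 probe sets had 1 gene, 932 several and 9211 none. Each gene stands for its brightest probe set, that of highest mean log2 signal among those annotated to it alone. The 2 RNP-IPs labelled induced were compared with the 2 labelled uninduced and total RNA as 1 group of 3 by moderated linear models (limma 3.58.1, R 4.3.3, all probe sets, 3 residual degrees of freedom), and a fit of 3 groups gave the other comparisons (2 residual degrees of freedom). The Benjamini-Hochberg adjustment ran over all 45101 probe sets. A call needed a change of 3-fold or more with an adjusted p under 0.5, and 0.05 was also tried. On simulated data with 45101 probe sets this first comparison called 89 of 100 probe sets changed 4-fold and 96 of 100 changed 16-fold in the right direction, and 16 unchanged ones. Before the change was added, all simulated arrays had the same mean per probe set, with independent noise. The simulation thus held no difference between total RNA and uninduced RNP-IPs and no deviation shared by many probe sets. Its counts need not hold for the real arrays.

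The members and gene lists were chosen with earlier results of these data known. All 41 members were named, with values on every array for those called in any comparison or nearest to a call and for others where replicates or paralogs were set side by side, and further genes of the pathway were named where called. Alternatives varied the threshold, the scaling (median centring, cyclic loess), the filter on dim probe sets, the probe set per gene, the controls, the replicate block and the arrays included.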

Additional observations from a re-analysis of the deposited data

How the results depend on the processing

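Against the 3 controls no member gene was called at an adjusted p under 0.05 from limma, 0 higher and 0 lower, nor was any of the 18195 genes. Calls over all genes were not counted under the scalings, filters, probe set choices and left-out arrays below. Changes in the number of member calls under these are thus not shown to be particular to the list. Lower calls numbered 2 after median centring and 2 with probe sets of mean log2 at least 5 alone, both adding Copb2, and 3 with the RNP-IPs labelled uninduced as sole controls, Sec24a, Sec23a and Bet1. Cyclic loess added Mcfd2, for 3 higher calls, and against total RNA Kdelr1. In the comparison with the RNP-IPs labelled uninduced, median centring, cyclic loess and the filter on dim probe sets each added Copb2 as lower, for 4. With the mean of all probe sets of a gene 1 member was called higher, since Gosr1 then had a log2 fold change of 1.23. Without the 2 arrays of low 5′ Gapdh signal, an alternative chosen after seeing the data, 1 was called higher and 3 lower, from 1 sample labelled induced and 2 controls. Leaving out each RNP-IP in turn gave 2 to 4 higher calls against the controls (4 without induced replicate 2, which added Ykt6 and Mcfd2) and 1 to 2 lower (Copb2 added without induced replicate 2, Cope without uninduced replicate 1). The log2 fold changes then ran from 3.63 to 3.76 for Man2a2, from 2.47 to 2.86 for Gosr1 and from -3.82 to -2.93 for Sec24a. When 1 sample labelled uninduced was left out, their adjusted p-values from limma reached 0.235, 0.389 and 0.462 in that order, nearer to the limit of 0.5. Against the RNP-IPs labelled uninduced there were 3 to 4 higher and 3 to 4 lower calls, between those and total RNA 1 to 2 higher and 0 to 1 lower (Copz1, without uninduced replicate 2), and against total RNA 2 to 3 higher and 1 to 4 lower.

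Same-numbered samples of the 2 kinds of RNP-IP deviated in opposite directions (r = -0.50 across all probe sets, which are not independent replicates), so the replicate numbers were not taken to pair them. With the replicate block 3 members were called higher and 0 lower against the RNP-IPs labelled uninduced. The higher ones, Man2a2, Gosr1 and Mcfd2, each had an adjusted p of 0.453 from limma, just under the limit of 0.5. Sec24a, Sec23a and Bet1 lay just over it, with adjusted p-values of 0.523, 0.568 and 0.531 from limma. Over all probe sets the calls went from 554 higher and 861 lower to 286 and 368. The crossed pairing, chosen after seeing the data, gave 3 higher and 4 lower members, and 647 and 968 probe sets. Under the alternatives run for each comparison no gene called in it changed direction. The choice of probe set was varied only against the 3 controls, and the second probe set of Bet1 runs opposite to its brightest against the RNP-IPs labelled uninduced (log2 fold change 0.71). Signals near background limit Arf5 and the lower group of Sec24a.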
